A study of Homo sapiens with 6 samples.

Results

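The ISG15 conjugation system is the set of 6 genes that make, attach and remove the ubiquitin-like protein ISG15. Its members are the modifier ISG15, the activating enzyme UBA7, the conjugating enzyme UBE2L6, the ligases HERC5 and HERC6, and the protease USP18. They were taken by gene symbol from a table of 37887 symbols measured by RNA sequencing. All 6 symbols were found, and all 6 were among the 18851 genes that passed the filter on low counts and were tested.

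ISG15 is made of a pair of ubiquitin-like folds and, like ubiquitin, is joined through its C-terminal end to lysines of other proteins. UBA7 activates it with ATP, UBE2L6 accepts it as a thioester, HERC5 transfers it to targets in human cells, and USP18 cleaves it off again. HERC6 is the close relative of HERC5 that carries out this step in mice and contributes little to ISGylation in human cells. The genes are known as interferon-stimulated genes, transcribed when the factor complex ISGF3 or IRF family factors bind interferon-stimulated response elements (ISREs) near their start sites. USP18 also binds IFNAR2 and damps type I interferon signalling without its protease activity, and free ISG15 stabilizes USP18 in human cells.

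BT-549, a triple-negative breast cancer cell line with mesenchymal features, was measured in 3 control and 3 IRF1-silenced (shIRF1) cultures. By the design text the cells carried a doxycycline-inducible shRNA against IRF1, a transcription factor that acts downstream of interferon-gamma and binds ISREs. Controls received 0.1% DMSO and the shIRF1 cultures 500 ng/ml doxycycline. By title the controls carried a control shRNA, whereas the design text describes a single line under both treatments. The comparison asks how the level of each transcript differed once IRF1 was silenced. The doxycycline and the shRNA cannot be told apart here, since both differ between the same samples. All cells are BT-549, and these libraries hold no second shRNA against IRF1. Whether the controls came from the same selected line as the shIRF1 cultures is not settled. No interferon is named in the labels, so the levels are those of cells without a stated stimulus.

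Totals of counted reads were 124253348 to 152874959 in the controls and 55143808, in shIRF1 replicate 2, to 160436234 in the shIRF1 libraries. A count of 3, taken as the lowest detectable, equalled 0.0182 to 0.0540 CPM (counts per 1000000 counted reads, TMM-scaled), and such floors cover counting error only. The mesenchymal genes VIM (593 to 945 CPM) and FN1 (574 to 775 CPM) were abundant in every library, whereas the epithelial genes CDH1 and EPCAM and the hormone receptors ESR1 and PGR stayed below 1 CPM. The epithelial keratin KRT18 was at 6.13 to 6.58 CPM in controls and 2.85 to 2.98 CPM in shIRF1 cultures (log2 fold change -1.11, adjusted p = 1.04e-08). VIM was 888 to 945 CPM in controls and 593 to 658 CPM in shIRF1 cultures, and FN1 was 739 to 775 against 574 to 622 CPM. ERBB2 was 47.7 to 54.8 against 35.0 to 38.1 CPM, and ZEB1 85.4 to 89.8 against 77.7 to 81.3 CPM. CDH2 overlapped between the groups, at 223 to 254 and 240 to 255 CPM. Of 12 blood cell markers 1, CD14, reached 1 CPM, and 4 (CD2, CD3D, MS4A1 and HBB) had no count in any library. The summed level of the 12 was 1.78 to 1.999 CPM in controls and 2.69 to 3.64 CPM in shIRF1 cultures. None of 6 endothelial markers reached 1 CPM, with sums of 0.690 to 0.947 and 0.650 to 0.703 CPM. The part of these markers in the results was not tested.

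IRF1 itself, the silenced gene, was measured at 45.3, 48.1 and 51.5 CPM in the controls and 13.8, 14.9 and 14.6 CPM in the shIRF1 cultures. The shIRF1 cultures kept 29.9% of the control level, a log2 fold change of -1.75 ± 0.06 (SE) with an adjusted p of 4.53e-13. This and every adjusted p given here are from the quasi-likelihood test of edgeR, Benjamini-Hochberg corrected over all genes tested. Of 7799 annotated exon bases of IRF1, 1716 are shared with C5orf56 and 469 with AC116366.3, both on the opposite strand. Since the strand setting of the counting is not given, reads of these genes may be in the IRF1 counts, which was not tested.

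All 6 members were lower after IRF1 silencing. Each passed an adjusted p of 0.05, fell by more than 2-fold, and was lower in every shIRF1 culture than in every control. Among all 18851 genes tested, 26.4% were called lower, 4.43% were called lower with a fold over 2, and 29.5% were lower in every shIRF1 culture than in every control. The log2 fold changes of the members ran from -3.85 for HERC6 to -1.95 for UBA7, with a median of -3.13, while the median over all genes was -0.0024. Counted from the most lowered gene, the members stood between places 24 (HERC6) and 173 (UBA7). In bulk RNA, fewer expressing cells and less RNA per cell cannot be told apart. The cultures are described as triplicates and the p-values measure the spread between them.

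**Figure D1:**
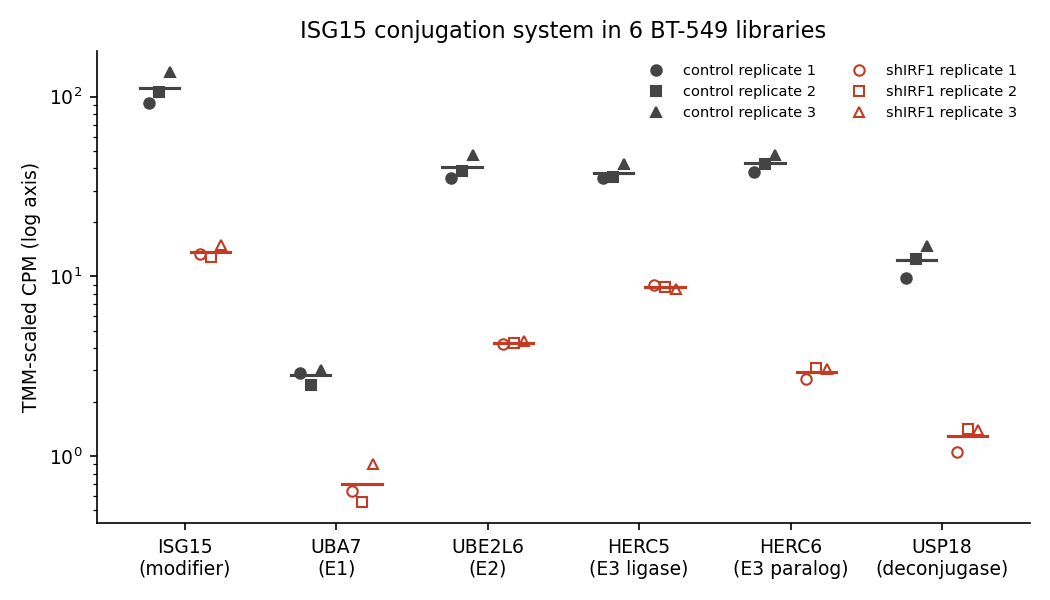
Level of each member in every library, in CPM on a log axis, for the 3 control and 3 shIRF1 cultures. Points are libraries and bars are group means. The groups are apart for all 6 genes, by the widest margin for HERC6, where the lowest control was 12.4 times the highest shIRF1 culture.

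ISG15 (chromosome 1, chr1:1001138-1014540, plus strand, GRCh38), the modifier, was the most abundant member. It was measured at 92.6, 106 and 137 CPM in the controls and at 13.3, 12.8 and 15.0 CPM in the shIRF1 cultures. The lowest control was 6.19 times the highest shIRF1 culture, and the 3 controls differed more among themselves than the silenced cultures did. The group means were 112 ± 22.8 (SD, n = 3) and 13.7 ± 1.14 CPM (SD, n = 3), so that 12.2% of the control level was left. The log2 fold change was -3.02 ± 0.11 (SE; 95% interval -3.25 to -2.795) with an adjusted p of 4.46e-13. The annotated exons of ISG15 share 36 bases with a pseudogene on the opposite strand, and the strand setting of the counting is not given in the sources used here.

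The 250 bases before the ISG15 start (RefSeq, GRCh38.p14, chr1:1013247-1013496, plus strand) are shown because the letters of an ISRE core lie in them. This RefSeq start lies inside the gene interval given above (GENCODE), which begins at base 1001138. Capitals mark matches to GAAA, any 2 bases, GAAA.
ISG15: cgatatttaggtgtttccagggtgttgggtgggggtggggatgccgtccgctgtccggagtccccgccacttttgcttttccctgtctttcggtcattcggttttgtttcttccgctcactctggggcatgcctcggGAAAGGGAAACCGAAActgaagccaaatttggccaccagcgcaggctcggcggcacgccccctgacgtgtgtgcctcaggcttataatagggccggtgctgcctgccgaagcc
The capitals are 2 overlapping matches on the strand of the gene, at -113 to -104 and -107 to -98 from the start site.

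UBA7 (chr3:49805207-49813946, minus strand), the E1 that activates ISG15, was the scarcest member. Its level was 2.91, 2.51 and 3.03 CPM in the controls and 0.643, 0.559 and 0.905 CPM after silencing. Even so the groups did not overlap, with the lowest control at 2.77 times the highest shIRF1 culture, the smallest such margin of the 6. These values rest on 307 to 452 counts per control and 31 to 149 counts per shIRF1 library. The mean fell from 2.82 ± 0.276 to 0.702 ± 0.181 CPM (SD, n = 3 each), to 24.9% of control. UBA7 had the widest interval of the members, with a log2 fold change of -1.95 ± 0.17 (SE; 95% interval -2.29 to -1.60) and an adjusted p of 2.79e-08. A microRNA gene, MIR5193, lies within its exons on the same strand and covers 109 bases.

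UBE2L6 (chr11:57551656-57568284, minus strand), the E2 that carries ISG15, was measured at 35.3, 38.8 and 47.3 CPM in the controls. The shIRF1 cultures held 4.21, 4.29 and 4.37 CPM. The 3 silenced values were close together (coefficient of variation 1.89%), and the lowest control was 8.09 times the highest of them. Mean levels were 40.5 ± 6.15 and 4.29 ± 0.0810 CPM (SD, n = 3 each), which left 10.6% of the control level. The log2 fold change was -3.24 ± 0.10 (SE; 95% interval -3.44 to -3.04; adjusted p = 4.34e-14).

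The ligase genes HERC5 (chr4:88457117-88506163) and HERC6 (chr4:88378739-88443111) lie on the plus strand of chromosome 4, with HERC6 before HERC5. HERC5, the main ISG15 ligase of human cells, was measured at 35.5, 35.6 and 42.1 CPM in controls and 8.93, 8.77 and 8.54 CPM in shIRF1 cultures. Its lowest control was 3.98 times its highest shIRF1 culture. The mean went from 37.7 ± 3.79 to 8.75 ± 0.198 CPM (SD, n = 3 each), 23.2% of control, with a log2 fold change of -2.11 ± 0.07 (SE; 95% interval -2.27 to -1.95; adjusted p = 3.94e-13).

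HERC6, its relative, fell further. The controls held 38.3, 42.2 and 47.2 CPM and the silenced cultures 2.71, 3.10 and 3.07 CPM. No other member had its groups so far apart. Mean levels were 42.5 ± 4.46 and 2.96 ± 0.220 CPM (SD, n = 3 each), so 6.96% remained, and the log2 fold change of -3.85 ± 0.09 (SE; 95% interval -4.04 to -3.66; adjusted p = 3.17e-15) was a 14.4-fold decrease.

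The windows upstream of both genes (RefSeq, GRCh38.p14; HERC5 at chr4:88456869-88457118 and HERC6 at chr4:88378602-88378851, both on the plus strand) are shown because they differ in this motif while both transcripts fell. Both windows are placed by RefSeq starts, which differ from the starts of the gene intervals given above (GENCODE). Capitals mark the same pattern as for ISG15, here read from the opposite strand.
HERC5: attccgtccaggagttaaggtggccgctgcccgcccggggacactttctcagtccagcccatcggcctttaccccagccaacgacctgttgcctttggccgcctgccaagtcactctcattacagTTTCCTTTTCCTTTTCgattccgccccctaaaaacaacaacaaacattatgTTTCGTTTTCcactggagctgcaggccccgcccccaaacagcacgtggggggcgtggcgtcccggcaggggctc
HERC6: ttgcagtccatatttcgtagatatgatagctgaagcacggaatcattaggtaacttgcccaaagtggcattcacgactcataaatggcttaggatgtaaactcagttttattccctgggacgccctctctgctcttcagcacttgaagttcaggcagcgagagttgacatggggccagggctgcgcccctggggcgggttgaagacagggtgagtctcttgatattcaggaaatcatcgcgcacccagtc
HERC5 holds 3 matches, at -125 to -116, -119 to -110 (overlapping the first) and -74 to -65, and HERC6 holds none.

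Over the 300-base promoter windows of RefSeq, which run 250 bases before and 50 after each start, 5 windows belonged to the members: 1 each for ISG15, HERC5 and HERC6 and 2 for UBE2L6. The ISRE-type pattern, searched on both strands, was in those of ISG15 and HERC5 and in neither window of UBE2L6. It was in 3.57% of 35116 windows in the table, in 2.98% of the 17853 of tested genes, in 9.49% of the 811 of genes called lower with a fold over 2, and in 2.79% of the 609 of genes called higher with a fold over 2. A GAS-type pattern (gamma-activated sequence: TTC, any 3 bases, GAA) was in none of the 5 windows and in 7.66% of all windows. It was in 6.48% of the windows of tested genes, 7.4% of those called lower and 7.88% of those called higher with a fold over 2. At such shares its absence from 5 windows says little. Since these patterns are short, a match is a description of letters, and a window without one says nothing on binding elsewhere.

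**Figure D2:**
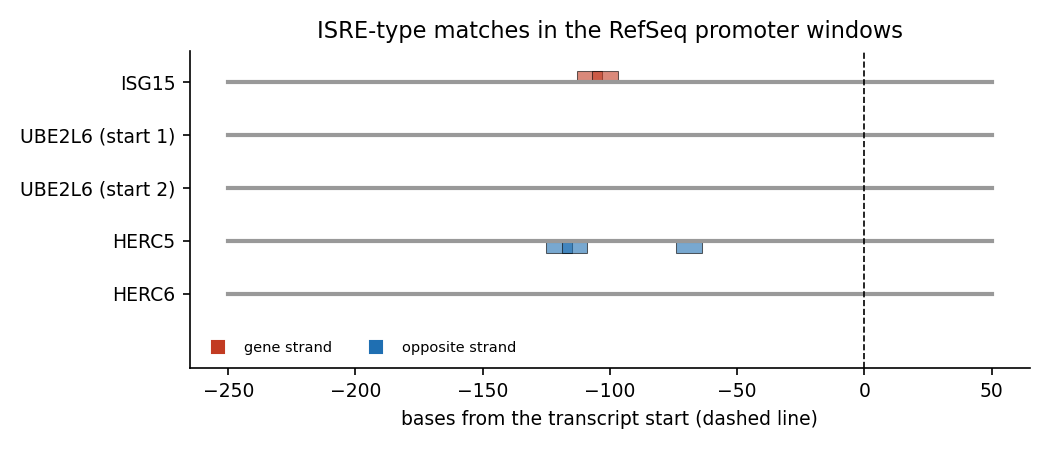
Position of ISRE-type matches relative to the RefSeq start site, in bases, in the upstream windows of the members found in the promoter table. Coloured marks are matches and the line is the window. ISG15 has 2 and HERC5 3, and HERC6 and both UBE2L6 windows have none.

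USP18 (chr22:18149899-18177397, plus strand), the protease that removes ISG15, was measured at 9.81, 12.6 and 14.7 CPM in controls and 1.06, 1.42 and 1.39 CPM in shIRF1 cultures. The lowest control was 6.89 times the highest shIRF1 culture. The mean fell from 12.4 ± 2.46 to 1.29 ± 0.204 CPM (SD, n = 3 each), leaving 10.4%, with a log2 fold change of -3.28 ± 0.15 (SE; 95% interval -3.58 to -2.97; adjusted p = 7.18e-12). USP18 has a close copy, USP41 (chr22:20350578-20390758, minus strand), which shares 376 of the 2055 windows of 75 bases (18.3%) in the USP18 exons, so the split of reads between them is uncertain. USP41 took 16, 26 and 32 counts in the controls and 4, 0 and 2 counts in the shIRF1 libraries, against 1209 to 2193 and 79 to 229 counts for USP18.

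The decreases were not of 1 size. By their 95% intervals, HERC6 fell the most and stood apart from all other members. USP18, UBE2L6 and ISG15 followed with overlapping intervals, and HERC5 and UBA7 fell least, again with intervals that overlapped each other and were separate from those of the other 4. Of the 15 pairs of members, 11 had separate intervals.

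**Figure D3:**
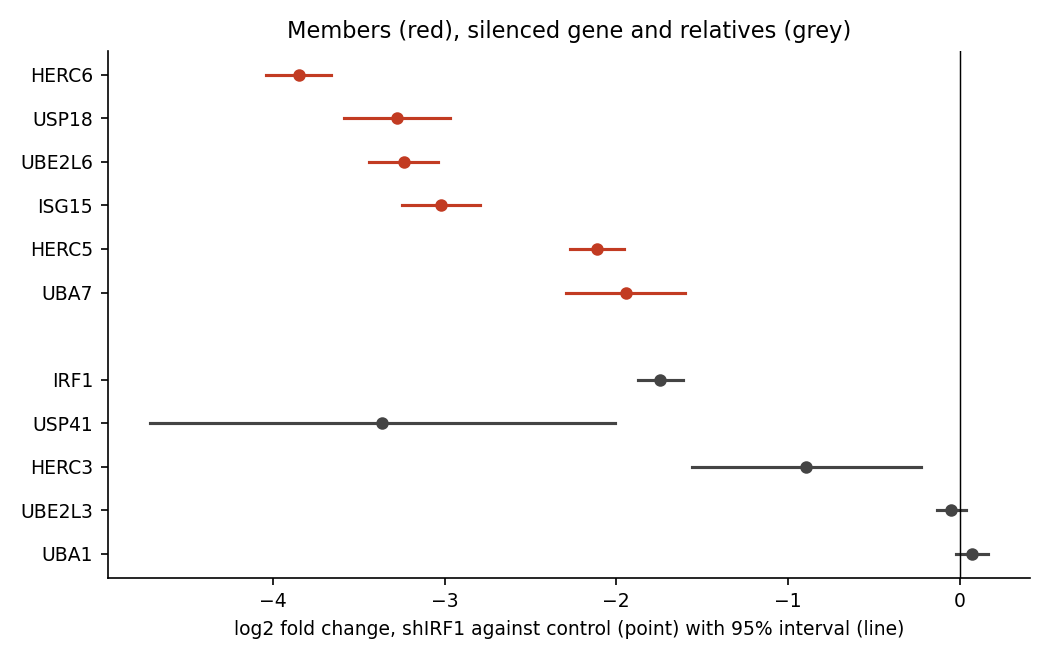
Log2 fold change (shIRF1 minus control) of each member (red), of IRF1 and of relatives (grey), with 95% intervals as lines. Negative values are lower after silencing. HERC6 (-3.85) lies lowest, USP18, UBE2L6 and ISG15 lie from -3.28 to -3.02, and HERC5 (-2.11) and UBA7 (-1.95) lie highest.

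Per kilobase of exon (GENCODE release 29), a scale for setting genes of different length beside each other, ISG15 stood far above the other members. The length used was that of all annotated exons of a gene together, not of the transcript expressed. How the order of close neighbours depends on this length was not tested, and ranges called apart reflect the spread between libraries only. In the controls it held 119 ± 24.2 CPM per kb (SD, n = 3), UBE2L6 18.4 ± 2.80, HERC5 7.92 ± 0.794, HERC6 7.34 ± 0.769, USP18 5.81 ± 1.15 and UBA7 0.620 ± 0.0607. The ranges of HERC5 and HERC6, and of HERC6 and USP18, overlapped, while the other neighbours in this order were apart. In the shIRF1 cultures ISG15 held 14.5 ± 1.21 CPM per kb, UBE2L6 1.95 ± 0.0369, HERC5 1.84 ± 0.0415, USP18 0.606 ± 0.0957, HERC6 0.511 ± 0.0379 and UBA7 0.155 ± 0.0398, and only USP18 and HERC6 overlapped. Thus the modifier kept the first place and the E1 the last in both groups.

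Among the 18569 tested genes with a known exon length, ISG15 moved from percentile 98.3 of level per kilobase in the controls to 82.5 in the shIRF1 cultures. UBE2L6 moved from 85.7 to 47.8, HERC5 from 70.9 to 47.0, HERC6 from 69.4 to 30.2, USP18 from 64.8 to 32.4 and UBA7 from 32.1 to 15.7. The silenced cultures therefore still held ISG15 above most genes, whereas UBA7 was below most genes in both groups.

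The members varied more between the controls than the median gene did. The coefficient of variation over the 3 controls was 20.4% for ISG15, 19.9% for USP18, 15.2% for UBE2L6, 10.5% for HERC6, 10.03% for HERC5 and 9.80% for UBA7, beside a median of 4.34% over the 13040 genes with a control mean of at least 1 CPM. All 6 were highest in control replicate 3, as were 36.9% of tested genes, and 5 were lowest in control replicate 1, with UBA7 lowest in replicate 2. Over the shIRF1 cultures the coefficient was 25.8% for UBA7 and 15.8% for USP18, the members with the fewest counts there, and 1.89% for UBE2L6 and 2.26% for HERC5. The median over genes in those cultures was 4.81%.

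Ratios taken within each library set members against each other and against relatives, with p-values adjusted over the 6 ratios computed. HERC5 to HERC6 was 0.928, 0.843 and 0.893 in the controls and 3.30, 2.83 and 2.78 in the shIRF1 cultures, a shift towards HERC5 in every silenced culture (in CPM, without correction for length). On the log2 scale this ratio rose by 1.74, from -0.17 ± 0.07 to 1.57 ± 0.14 (SD, n = 3 each), with groups apart and a two-sided exact permutation p of 0.1, the lowest that 3 against 3 allows (0.12 adjusted over the 6). The protease to modifier ratio, USP18 to ISG15, was -3.18 ± 0.09 and -3.42 ± 0.24 on the log2 scale, a difference of -0.24 with overlapping groups (exact permutation p = 0.3, and 0.3 adjusted). The difference was -0.12 without shIRF1 replicate 1 and -0.36 without shIRF1 replicate 2. Its direction was reversed when 0.5 CPM was added to both genes, to 0.13.

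UBE2L6, UBA7 and HERC6 were each also set against a relative outside the system, while HERC5 and USP18 were not. UBE2L6 to UBE2L3, the E2 of the same subfamily that carries ubiquitin, changed by -3.18 on the log2 scale, from -2.10 ± 0.20 to -5.28 ± 0.03 (SD, n = 3 each). UBE2L3 itself was at 172 ± 1.26 CPM in controls and 166 ± 0.938 CPM in shIRF1 cultures and was not called (log2 fold change -0.05, 95% interval -0.13 to 0.035, adjusted p = 0.335). UBA7 to UBA1, the main E1 of ubiquitin, changed by -2.10, while UBA1 was at 449 ± 18.7 and 472 ± 8.25 CPM and was not called (0.07, 95% interval -0.020 to 0.16, adjusted p = 0.187), although scaling by library size alone (0.12, adjusted p = 0.0176) or by upper quartile (0.12, adjusted p = 0.0312) called it higher.

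HERC6 to HERC3, a HERC ligase on the same chromosome, changed by -2.88, but HERC3 was scarce. It held 0.434 ± 0.0987 CPM in controls and 0.225 ± 0.0660 CPM in shIRF1 cultures (log2 fold change -0.89 ± 0.32, adjusted p = 0.0255), a call lost without control replicate 2 (adjusted p = 0.136), without shIRF1 replicate 2 (0.0643), without shIRF1 replicate 3 (0.0783) and with DESeq2 (0.0507). All 3 of these ratios to a relative had groups apart, an exact permutation p of 0.1 and 0.12 adjusted.

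**Figure D4:**
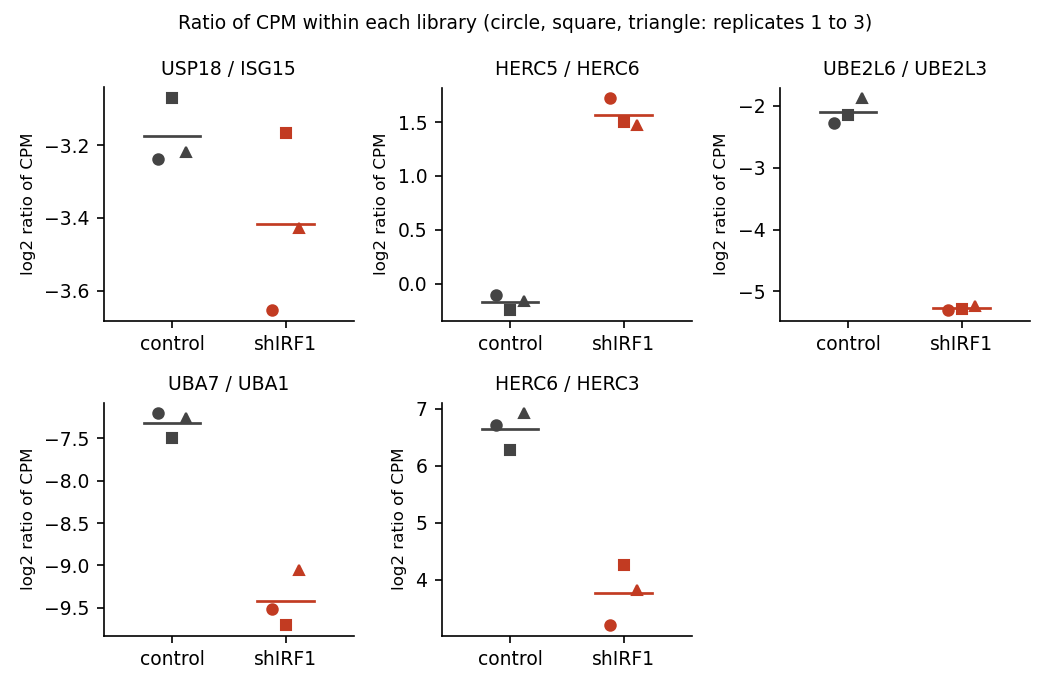
Log2 ratio of CPM between gene pairs within each library. Points are the 3 control and 3 shIRF1 cultures and lines are group means. HERC5 to HERC6 lies higher after silencing, USP18 to ISG15 overlaps between groups, and the 3 ratios of a member to a relative outside the system lie lower.

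The other enzymes of ubiquitin and ubiquitin-like modification showed no such shared direction. Of 9 other E1 enzymes, 2 were lower and 2 higher, with a median log2 fold change of -0.0094. Over all genes tested, 26.4% were called lower and 24.1% higher, the shares to set beside each list that follows. ATG7, the E1 of autophagy conjugation, rose from 66.5 to 79.9 CPM, and MOCS3, the E1 of URM1, fell from 28.4 to 20.8 CPM. The other lowered E1, UBA6, lost its call without control replicate 1 (adjusted p = 0.0731), control replicate 2 (0.0792) or shIRF1 replicate 3 (0.114), by upper quartile (0.0954) or library size (0.120) scaling, and with counts thinned to the smallest total (0.0505). UBA2 was called lower without shIRF1 replicate 2 (0.0237). Scaling by library size alone left 1 lower and 3 higher.

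Of 36 other E2 enzymes 35 were tested, of which 13 were lower and 7 higher with a median of -0.06. Beside UBE2L6, none of them fell past 2-fold, and the lowest was UBE2D1 at -0.81. UBE2D4, which hands ubiquitin to many ligases, rose from 19.1 ± 0.149 to 51.3 ± 1.57 CPM (log2 fold change 1.42 ± 0.05, adjusted p = 5.19e-13). UBE2Q1 fell from 91.8 to 66.6 CPM, and UBE2C, the E2 of the anaphase-promoting complex, from 270 to 196 CPM.

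Among 26 other HECT ligases, the family of HERC5 and HERC6, 10 were lower and 5 higher, with a median of -0.02 and no fold past 2; by library size alone these were 9 and 7. WWP1 fell from 103 to 54.6 CPM (log2 fold change -0.91 ± 0.05, adjusted p = 8.07e-11), HERC4, another HERC ligase, from 215 to 150.2 CPM (-0.52 ± 0.05, adjusted p = 4.42e-08), and HECW2 from 4.23 to 2.37 CPM. WWP1 was the most lowered of the 26, so that HERC5 and HERC6 fell further than any of them.

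Of 52 other USP proteases 50 were tested, with 12 lower and 16 higher (9 and 19 by library size alone) and a median of 0.03. USP41 was the only one past 2-fold, at the counts given beside USP18. USP31 fell from 53.0 to 30.6 CPM and USP48 rose from 82.1 to 102 CPM. USP2, which can also cleave ISG15, rose from 7.53 ± 0.303 to 11.7 ± 0.530 CPM (log2 fold change 0.64 ± 0.07, adjusted p = 1.11e-06).

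Of 14 other ubiquitin-like modifiers 13 were tested, of which 3 were lower and 5 higher (2 and 7 by library size alone) with a median of 0.08 and no fold past 2. UFM1 was the most lowered of them (192 to 105 CPM, log2 fold change -0.88), and URM1, a sulfur carrier that is also conjugated, rose from 91.9 to 129.9 CPM. FAT10 (UBD), the other modifier with a pair of ubiquitin-like folds, had no count in any library.

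**Figure D5:**
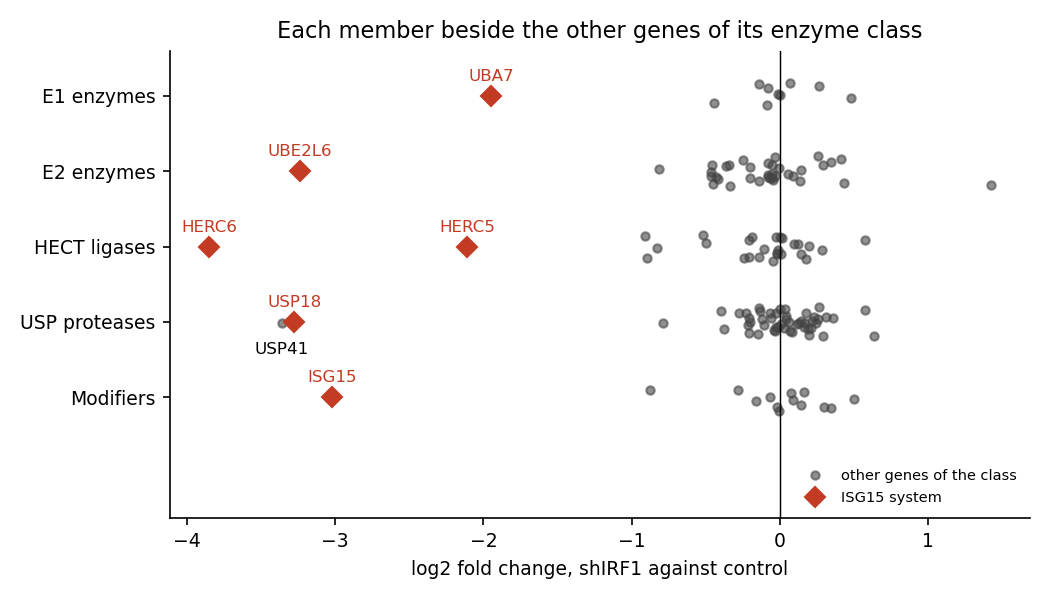
Log2 fold change (shIRF1 minus control) of every tested gene in each enzyme class, with members of the ISG15 system in colour and the other E1s, E2s, HECT ligases, USP proteases and modifiers in grey. Apart from USP41, whose fitted value rests on 4, 0 and 2 counts, the grey points lie between -0.91 and 1.42 and the coloured points between -3.85 and -1.95.

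Genes that work with the system or are described to take up ISG15 were followed by 2 further lists. The list of partners and further enzymes held 12 genes, all tested, of which 4 were lower and 2 higher, with a median of 0.01; by library size alone 4 were higher. TRIM25, a ligase described to attach ISG15 as well as ubiquitin, fell from 178 ± 5.30 to 95.1 ± 4.99 CPM (log2 fold change -0.90 ± 0.05, adjusted p = 4.85e-11). STAT2, which bridges USP18 and IFNAR2, fell from 64.1 ± 4.84 to 31.9 ± 1.58 CPM (-1.01 ± 0.06, adjusted p = 1.66e-10), and ARIH1, another ligase described for ISG15, from 74.7 ± 3.71 to 45.5 ± 1.43 CPM (-0.72 ± 0.05, adjusted p = 9.91e-10). IFNAR2, the receptor chain that USP18 binds, was at 1.90 ± 0.140 and 2.004 ± 0.274 CPM and was not called (0.10, adjusted p = 0.579), nor was IFNAR1 (0.06, adjusted p = 0.265), which library size scaling alone called higher (0.11, adjusted p = 0.0433).

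Of 26 described targets of ISG15, 19 were lower and 4 higher, with a median of -0.42, and 9 of the 19 fell past 2-fold. Over all genes tested, 26.4% were called lower and 4.43% lower with a fold over 2. Many of the described targets are themselves interferon-stimulated. MX1, a dynamin-like antiviral GTPase, fell the most, from 258 ± 51.8 to 6.88 ± 1.49 CPM (log2 fold change -5.22 ± 0.15, adjusted p = 2.94e-14). The RNA-activated kinase EIF2AK2 fell from 267 ± 7.70 to 99.6 ± 0.528 CPM (-1.42 ± 0.04, adjusted p = 3.92e-14). CCND1, cyclin D1, a driver of the G1 phase, fell from 90.5 ± 7.04 to 17.1 ± 1.46 CPM (-2.40 ± 0.07, adjusted p = 1.66e-14). In the other direction, the cap-binding protein EIF4E2 rose from 34.5 to 71.0 CPM (log2 fold change 1.04).

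Of 8 factors that bind ISRE or GAS elements, 7 were lower, with a median of -1.10 and 5 past 2-fold. STAT2 is among the 5 only narrowly, at -1.01 with a 95% interval of -1.13 to -0.886 that spans a 2-fold decrease. The shares over all genes tested were 26.4% lower and 4.43% lower with a fold over 2. The list includes IRF1, which the shRNA targets. IRF9, a DNA-binding part of ISGF3, fell from 4.69 ± 0.112 to 1.71 ± 0.305 CPM (log2 fold change -1.43 ± 0.12, adjusted p = 2.60e-08). IRF7 fell from 8.14 to 2.97 CPM, and IRF2 and IRF3 changed by -0.29 and -0.22. STAT3 was the 1 called higher (0.13, adjusted p = 0.0163), a call lost without control replicate 1 (0.0690) or control replicate 2 (0.0547).

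The genes with the profile most like each member were found as the root mean square difference, over the 6 libraries, of log2(CPM + 0.5) centred on the controls, among 13065 genes averaging 1 CPM or more. The libraries are shared by all genes, so these distances are descriptions. For ISG15 the nearest were SLC15A3, a lysosomal peptide transporter, at 0.0543, PARP10 at 0.109, UBE2L6 at 0.110, LY6E at 0.112 and FGFRL1 at 0.122. UBE2L6 thus took place 3 from ISG15, and ISG15 took place 4 from UBE2L6. USP18 stood at place 10 from ISG15, with HERC6, HERC5 and UBA7 at places 36, 56 and 138.

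Nearest to UBE2L6 were GBP1, an interferon-induced GTPase, at 0.0877, SLC15A3 at 0.0947 and APOL1 at 0.109. HERC6 had IFI44 at 0.0852, IFITM1 at 0.0886 and SAMD9 at 0.108, and USP18 had PARP10 at 0.0854, OASL at 0.0955 and IFIT2 at 0.109. HERC5 was nearest to CCN3 at 0.0724, KRT17 at 0.0811 and DTX3L, a ubiquitin ligase that pairs with PARP9, at 0.0923. UBA7 was nearest to MAP2K6 at 0.0562, SIRPG-AS1 at 0.0774 and ARHGEF37 at 0.0804. The added 0.5 CPM compresses scarce genes, so a likeness to UBA7 or USP18, or to a scarce neighbour of any member, is partly one of level. Among neighbours averaging below 1 CPM in shIRF1 cultures, fitted log2 fold changes were -3.59 for SLC15A3, -4.44 for APOL1, -3.30 for KRT17 and -2.01 for SIRPG-AS1. The members beside them were at -3.02 (ISG15), -3.24 (UBE2L6), -2.11 (HERC5) and -1.95 (UBA7).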

How the data were processed

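Poly(A)-selected, strand-marking RNA libraries (TruSeq Stranded mRNA) from 3 control and 3 shIRF1 BT-549 cultures were used. The authors deposited whole-number counts per gene symbol, not normalized. The submitters' processing notes name CASAVA 1.8.2, STAR 2.7.9a, featureCounts, DESeq2 1.24.0 and GRCh38.p7. The annotation and strand setting are not given in the sources used here. Between 72.1% and 75.2% of counts from 2 to 11 were even, so halved counts were an alternative, and 14 symbols had turned into dates. No count was present for 10041 symbols.

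Genes were filtered with filterByExpr (minimum count 10), scaled by TMM and tested with edgeR 4.0.16 (glmQLFit, glmQLFTest; R 4.3.3), with Benjamini-Hochberg adjustment over all 18851 genes. SEs and 95% intervals come from the F statistics. DESeq2 1.42.0 was an alternative. The scripts were tested on simulated data. Genes named were the members, their relatives, IRF1, the 3 smallest adjusted p in each list, and the nearest genes (5 for ISG15, 3 otherwise), and further list genes were named after their values were seen. Some genes that this rule names are counted in their lists and not reported here. Members and lists were chosen with earlier results of these data known, and some genes are in more than 1 list. Exon lengths (GENCODE release 29, on 98.5% of tested genes) and promoters (RefSeq, GRCh38.p14) were matched by symbol. UBA7 and USP18 were not in the promoter table.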

Additional observations from a re-analysis of the deposited data

How the results depend on the processing

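Over 17 alternatives (other scalings and filters, DESeq2, a threshold of 2-fold within the test, halved or thinned counts, each library left out, and a replicate block), the 6 members stayed lower and past the threshold. Their log2 fold changes ranged from -3.14 to -2.85 for ISG15, -2.20 to -1.84 for UBA7 (the ends without shIRF1 replicates 3 and 2), -3.33 to -3.11 for UBE2L6, -2.15 to -2.02 for HERC5, -3.92 to -3.77 for HERC6 and -3.42 to -3.13 for USP18, with a highest adjusted p of 1.61e-04 (UBA7). Testing against a 2-fold change in the fit itself left 377 genes lower and 127 higher. With scaling by library size alone, 4 partners were higher and 1 other E1 lower. With each library left out, 1 to 3 other E1s were lower and 0 to 1 of the ISRE and GAS factors higher; the gene was STAT3 (unadjusted p = 0.0334 without control replicate 1 and 0.0238 without control replicate 2). Adding 0.5 CPM moved the log2 ratio differences to 0.13 for USP18 to ISG15 (reversed). Those of HERC5 to HERC6 and UBA7 to UBA1 moved to 1.59 and -1.54. The added 0.5 CPM is a larger share of the scarcer gene of a pair. In the shIRF1 cultures USP18 averaged 1.29 CPM beside 13.7 for ISG15, HERC6 2.96 beside 8.75 for HERC5, and UBA7 0.702 beside 472 for UBA1. Deviations from the group mean correlated little between control and shIRF1 libraries of the same replicate number (-0.0543 to 0.0731). Libraries of different numbers were not compared, so this does not settle whether the libraries were paired. A replicate block gave 4972 genes lower and 4490 higher and changed no member's call (UBA7 -2.00). Of 399 values, 387 were classed as the same as in the main analysis, 11 as moved and 1 as reversed. An adjusted p threshold of 0.01 and the test against a 2-fold change repeat the main log2 fold changes of the members. Only the calls could differ there, and the lists share genes, so the 399 values are not independent checks. Values classed as the same include counts of genes that shifted. Other USP proteases, for example, went from 12 lower and 16 higher to 9 and 19 by library size alone. Calls of single genes in the lists also crossed the threshold, some of them given above. UBA7 in shIRF1 replicate 2, with 31 counts in the shallowest library, is limited by depth.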
